A study of Mus musculus with 6 samples.

Results

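The genes described here handle vitamin A and its active form, retinoic acid, or belong to the ALDH1 aldehyde dehydrogenases, and they were followed in the ovaries of mice without the receptor for follicle-stimulating hormone (FSH). The set holds 9 genes: Stra6, Rdh10, Aldh1a1, Aldh1a2, Aldh1a3, Aldh1a7, Crabp1, Crabp2 and Cyp26b1. They were chosen by name out of 18194 genes whose probe sets the platform annotation ties to 1 symbol. A probe set is the group of short probes on the array that gives 1 value for a transcript. The 9 genes had 12 probe sets, and the brightest of a gene's probe sets, by its mean over all 6 arrays, stood for the gene. The mean signal over all arrays, which takes no account of the groups, was the measured value in this choice. It mattered for Rdh10, whose probe sets had mean signals of 137.8 and 130.0, and for Aldh1a3, with 39.4, 12.0 and 2.33.

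RNA came from whole ovaries of 8-month-old female mice, 3 wild-type (WT) samples and 3 samples of FORKO mice, in which the gene for the FSH receptor, Fshr, was deleted in all its variants. Females of both genotypes were offspring of heterozygous parents of the 129T2 svEmsJ strain. Each sample pooled both ovaries and had 1 Affymetrix Mouse Genome 430 2.0 array. Replicates are biological by their labels, yet the number of animals behind each is not stated, and the p-values below reflect only how far these samples spread. The free-text description of the FORKO samples speaks of wild-type mice, while their titles and genotype field say FORKO, and the titles were followed.

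Vitamin A circulates as retinol, which the membrane transporter STRA6 takes up from its carrier in the blood. The dehydrogenase RDH10 oxidises retinol to retinal, and ALDH1A1, ALDH1A2 and ALDH1A3 oxidise retinal to retinoic acid. CRABP1 and CRABP2 bind retinoic acid in the cell, CRABP2 hands it to its nuclear receptors, and CYP26B1 breaks it down. In the fetal mouse gonad retinoic acid starts meiosis in germ cells, and CYP26B1 in the fetal testis keeps it low. Aldh1a7 is a rodent copy of Aldh1a1, and its mouse protein has been described as lacking the activity towards retinal that ALDH1A1 has.

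Aldh1a7 and Aldh1a1 lie next to each other on mouse chromosome 19, with no other protein-coding gene between them in the gene table. Because the results below turn on the contrast between these neighbours, the 250 bases before their starts are shown, from RefSeq on build GRCm38.p6. Of the 9 genes, 6 had an entry in the promoter table, with 10 windows in all. Aldh1a1 had 2 windows, and the one shown is that which shares its longest stretch with Aldh1a7. The Aldh1a7 window is chr19:20727557-20727806 on the minus strand and the Aldh1a1 window chr19:20601718-20601967 on the plus strand. Capitals mark the longest identical stretch, 65 bases long, which ends 30 bases before the start in both.
Aldh1a7: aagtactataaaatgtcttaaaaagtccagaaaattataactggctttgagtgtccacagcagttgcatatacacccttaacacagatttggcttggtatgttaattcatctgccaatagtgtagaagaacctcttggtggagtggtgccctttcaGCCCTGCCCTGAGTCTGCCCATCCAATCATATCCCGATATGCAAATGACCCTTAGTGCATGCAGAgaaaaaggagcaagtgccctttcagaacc
Aldh1a1: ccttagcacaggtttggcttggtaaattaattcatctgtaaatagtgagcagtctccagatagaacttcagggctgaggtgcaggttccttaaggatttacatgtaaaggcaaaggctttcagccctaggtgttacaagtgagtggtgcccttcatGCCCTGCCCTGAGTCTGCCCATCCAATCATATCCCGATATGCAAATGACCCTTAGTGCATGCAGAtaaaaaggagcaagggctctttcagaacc

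Compared base by base without gaps, the 100 bases nearest the start were 94.0% identical and the whole 250 bases 51.6%. The shared stretch holds the octamer ATGCAAAT, the binding motif of POU-domain factors, and a CCAAT box. Searched on both strands of windows of the same length, the octamer was in 1.60% and CCAAT in 33.8% of all 32851 windows. The window of Aldh1a2 also holds both. For the half-site of retinoic acid receptors only the spelling AGGTCA was searched, and it was in 0 of the 10 windows of these genes. It was in 14.0% of all windows. Other spellings of this half-site were not searched, so its absence from these windows is not shown. The motifs were picked after the sequences had been seen, and a match is a description of these letters only.

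Signals are given after scaling all arrays to the same trimmed mean. Log2 changes are the FORKO mean less the WT mean of log2(signal + 5.73), and because of the added constant they understate changes at low signal. Probe sets with a mean signal under 20.4 were not tested. FORKO replicate 1 stood apart from its group: its log2 signals correlated with those of the other FORKO arrays at 0.954, against 0.970 between FORKO replicates 2 and 3 and 0.967 to 0.968 among the WT arrays. Fshr, the deleted gene, read 99.6, 59.4 and 119 in WT and 1.20, 11.2 and 11.7 in FORKO ovaries; whether its probe set lies in the deleted part is not given in the sources used here. Of the 7 ovarian marker genes with a probe set, 6 passed the filter on dim signals, and Amh, a hormone of growing follicles, read 0.830 to 1.16 on all 6 arrays. The number of arrays limits the precision, and 3 against 3 arrays cannot give an exact permutation p below 0.1.

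Of the 9 genes, 7 passed the filter and were tested; Crabp1 and Stra6 were too dim. Aldh1a7 rose and the other 6 tested genes did not pass, of which 0 had an unadjusted p under 0.05. The large rise of Aldh1a7 was known from these same arrays when the set was drawn up, so its values are a description and no independent support. Over all 22506 tested probe sets, 1.65% passed limma at the adjusted threshold of 0.05, 1.06% as higher and 0.595% as lower. The median change of the 7 tested genes was -0.07, beside -0.02 over all 11198 genes tested. In all genes tested, 52.6% had a negative change, and 4 of the 7 did here. The 238 higher calls made up 64.0% of all calls, 50.6% with arrays scaled to the same median and 84.2% with arrays scaled to the bacterial spikes, a scaling that set the median of all changes at 0.15 on the log2 scale.

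**Figure D1:**
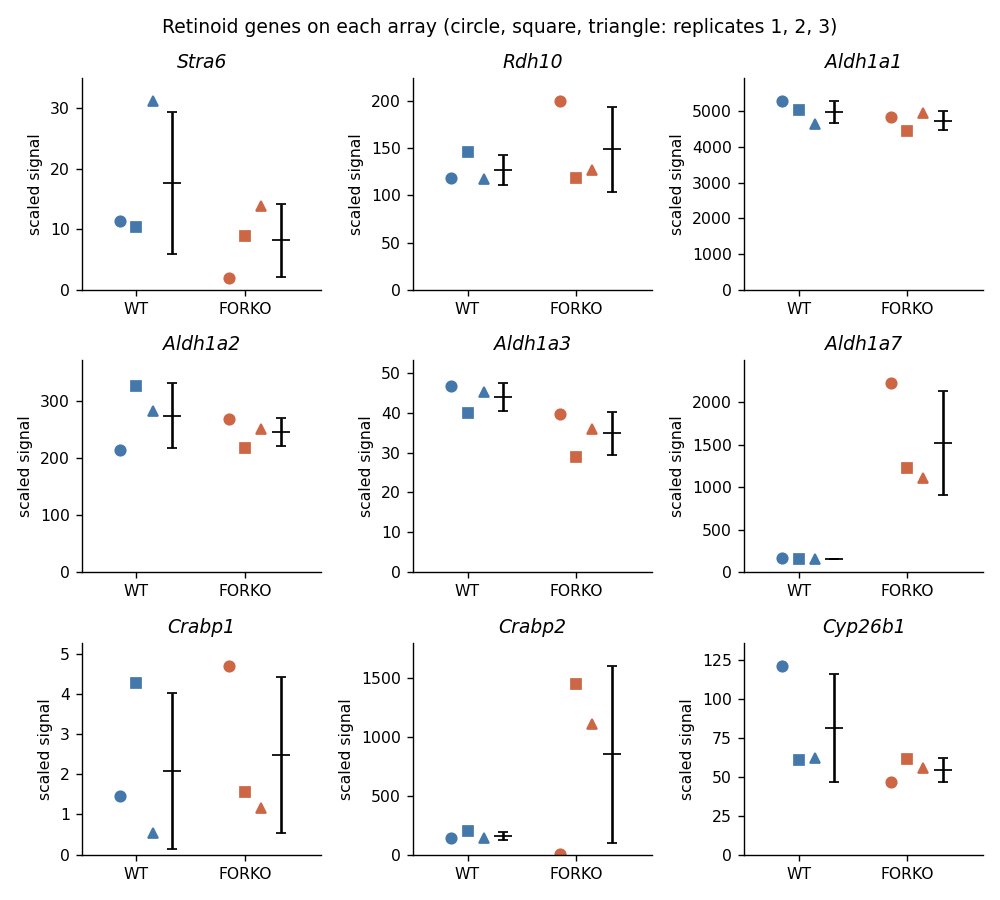
Scaled signal (linear, each axis from 0) of the 9 genes on each of the 3 WT and 3 FORKO arrays, with replicates 1, 2 and 3 as circle, square and triangle and the mean ± SD beside them. Aldh1a7 lies at 152 to 162 in WT and at 1108 to 2227 in FORKO; Crabp2 is at 9.29 in FORKO replicate 1 and at 1446 and 1109 in the other FORKO arrays.

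Aldh1a7 read 162, 154 and 152 on the WT arrays and 2227, 1226 and 1108 on the FORKO arrays. The WT arrays were nearly alike, with a coefficient of variation of 3.26%, while the FORKO arrays varied by 40.4% and all lay far above them. Against the WT mean the FORKO arrays were 14.3, 7.86 and 7.10 times higher. The log2 change was 3.17 ± 0.24 (SE, n = 3 in each group; limma adjusted p = 0.00104), with a 95% interval from 2.62 to 3.71, and an exact two-sided permutation test gave p = 0.1. By absolute size this change ranked 14 among the 11198 genes, and by p-value 3. In a whole organ, more cells that make a transcript and more RNA in each cell cannot be told apart.

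Aldh1a1, next to it on the chromosome, differed little between the groups and did not pass. It read 5278, 5024 and 4648 in WT and 4830, 4446 and 4951 in FORKO ovaries, so that the groups overlapped, and its coefficient of variation over all 6 arrays was 6.01%. The log2 change was -0.07 ± 0.11 (SE, n = 3; limma adjusted p = 0.837), with a 95% interval from -0.32 to 0.18, and it was 0.10 with spike scaling. The difference between the log2 signals of Aldh1a7 and Aldh1a1 was larger in FORKO than in WT arrays by 3.24, with 3.83, 3.09 and 2.79 for FORKO replicates 1, 2 and 3 (exact two-sided permutation p = 0.1). The sequences of the probes were not used here, so how far the Aldh1a7 probe set can also bind Aldh1a1 transcripts was not tested.

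Neither of the other enzymes that make retinoic acid passed. Aldh1a2, the main maker of retinoic acid in the mouse embryo, read 213, 326 and 282 in WT and 267, 218 and 251 in FORKO ovaries. Its groups overlapped, and its log2 change was -0.14 ± 0.19 (SE, n = 3; limma adjusted p = 0.813; 95% interval -0.57 to 0.30; 0.03 with spike scaling). Aldh1a3, known from epithelia and the developing eye, read 46.6, 40.0 and 45.2 in WT and 39.6, 29.0 and 35.8 in FORKO ovaries. Its groups did not overlap, as for 20.4% of all tested probe sets, but the difference was small (log2 change -0.30 ± 0.21, SE, n = 3; limma adjusted p = 0.570; 95% interval -0.76 to 0.16). The remaining 2 probe sets of Aldh1a3 were below the filter on dim signals.

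Upstream of these enzymes, Rdh10 had 2 tested probe sets. The brighter one read 118, 146 and 117 in WT and 200.3, 119 and 127 in FORKO ovaries, with FORKO replicate 1 highest and the other FORKO arrays within the WT range. Its log2 change was 0.19 ± 0.22 (SE, n = 3; limma adjusted p = 0.768; 95% interval -0.31 to 0.69), and -0.04 without FORKO replicate 1. The other probe set read 105, 78.4 and 119 in WT and 226, 124 and 127 in FORKO ovaries, so that its groups did not overlap. Its log2 change was 0.59 ± 0.26 (SE, n = 3; limma adjusted p = 0.332; 95% interval 0.01 to 1.18), and 0.32 without FORKO replicate 1. Stra6, the retinol transporter, read 11.4, 10.3 and 31.2 in WT and 1.86, 8.84 and 13.8 in FORKO ovaries, too dim to be tested.

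**Figure D2:**
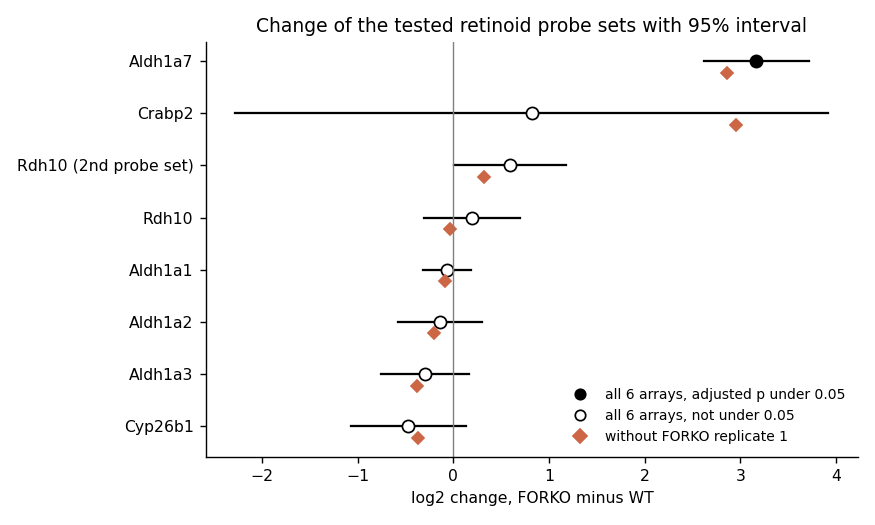
Log2 change, FORKO minus WT, of each tested probe set of the 9 genes (circles, filled where limma's adjusted p was under 0.05) with its 95% interval, and the change without FORKO replicate 1 (diamonds). The interval of Aldh1a7 runs from 2.62 to 3.71, and Crabp2 moves from 0.82 to 2.96 without that array.

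Crabp2, which carries retinoic acid to its receptors, differed most between FORKO arrays of the 7 tested genes. It read 142, 200 and 140 in WT (160 ± 33.9, SD, n = 3) and 9.29, 1446 and 1109 in FORKO replicates 1, 2 and 3. FORKO replicate 1 was below all WT arrays and under the level of the filter on dim signals, so the size of its difference is uncertain, while replicates 2 and 3 were 9.01 and 6.92 times above the WT mean. The log2 change over all arrays was 0.82 ± 1.39 (SE, n = 3; limma adjusted p = 0.846; 95% interval -2.28 to 3.92; exact two-sided permutation p = 0.9). Without FORKO replicate 1 it was 2.96 ± 0.21 (SE, 3 WT and 2 FORKO arrays; limma adjusted p = 7.42e-06), in a fit where 3.84% of all probe sets passed, 2.65% as higher and 1.19% as lower. Without FORKO replicate 2 or 3 it was -0.34 and -0.15.

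Crabp2 was 1 of 375 genes, or 3.35% of those tested, with FORKO replicate 1 below and FORKO replicates 2 and 3 above all WT arrays. The summed signal of 9 granulosa cell markers was 6172 in FORKO replicate 1, 16837 and 17485 on the other FORKO arrays and 13562 to 18029 in WT. Their members did not run together. Inha, Inhba, Inhbb, Fst, Hsd17b1 and Nr5a2 were below all WT arrays in FORKO replicate 1, as Inhba with 54.2 against 2046 to 4332 in WT, while Foxl2 and Amhr2 were above them, at 849 and 2841 against 626 to 809.8 and 1550 to 1745, and Amh was near 0 on all arrays. Nr5a2 was also low in FORKO replicates 2 and 3, at 657 and 767 against 1636 to 1928 in WT. By their brightest probe sets none of the 8 tested granulosa markers passed limma (3 at an unadjusted p under 0.05). With the replicate block Nr5a2 fell (adjusted p = 0.0421) and Amhr2 rose (0.0346). A further probe set of Nr5a2 passed without the block (log2 change -1.67, limma adjusted p = 0.0368), and in 3 of the 6 fits with an array left out. Another of its probe sets did not pass without the block (log2 change -1.52, limma adjusted p = 0.0648). The summed signal of 7 oviduct epithelium markers was 278 in FORKO replicate 1, 477 and 419 in replicates 2 and 3, and 191 to 249 in WT. None of 3 tested passed limma (2 at an unadjusted p under 0.05, against 16.8% of all genes tested). Here too the members differed: Ovgp1, the oviduct glycoprotein, read 27.2, 247 and 184 in FORKO replicates 1, 2 and 3 and 12.7 to 34.4 in WT, while Wfdc2 was highest in FORKO replicate 1, at 52.1, 45.9 and 34.0 against 1.56 to 13.7 in WT. Wfdc2 passed the filter on dim signals through its FORKO arrays alone, so its unadjusted p rests on that choice. Dynlrb2, a gene of cilia, was also highest in FORKO replicate 1, at 23.1, 17.6 and 14.0 against 4.57 to 9.47 in WT. Foxj1, a factor of ciliated cells, read 1.56 to 6.65 on all arrays. Sox17, tested as well, read 134, 157 and 175 in WT and 148, 140 and 159 in FORKO ovaries (log2 change -0.06, limma adjusted p = 0.923). Pax8 and Tekt1 were too dim to be tested, and the groups overlapped for both. The part of either cell type in the Crabp2 signal was not tested.

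**Figure D3:**
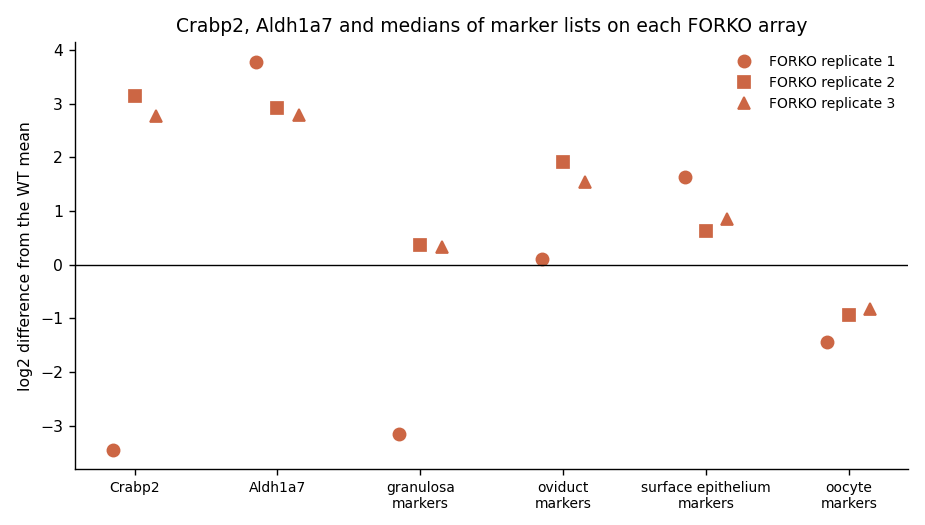
Log2 difference of each FORKO array from the WT mean for Crabp2, Aldh1a7 and the median of 4 marker lists. FORKO replicate 1 is at -3.45 for Crabp2, from a signal under the filter on dim signals, and -3.15 for granulosa markers, while Aldh1a7 is at 2.78 to 3.79 on all FORKO arrays.

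Beside the higher Aldh1a7 signal, the sums of 4 other marker lists lay outside the WT range on all FORKO arrays. The summed signal of 11 surface epithelium and mesothelium markers was 827 to 915 in WT and 1512 to 2566 in FORKO ovaries. All 11 were tested, and Gpm6a, a membrane glycoprotein gene, and the keratin genes Krt18 and Krt8 rose, with log2 changes of 1.22, 1.15 and 1.07 (limma adjusted p = 0.0496, 0.0321 and 0.0155). For 9 markers of Sertoli and Leydig cells the summed signal was 338 to 452 in WT and 1043 to 4292 in FORKO ovaries. Of the 6 tested, Ptgds, a prostaglandin D synthase, and Defb19, a defensin, rose by 5.00 and 1.66 (log2, limma adjusted p = 0.00623 and 0.0220). Most of the FORKO sums came from them, with 2465, 304 and 1123 for Ptgds and 1059, 499 and 697 for Defb19. In all, 5 of the 6 had a positive and 1 a negative change. Gata1 was at -0.12 and Rhox5 at 0.42 (log2), and the groups overlapped for both. Sox9 and Dmrt1, which define Sertoli cells, were too dim to be tested. Sox9 read 8.82, 4.58 and 8.77 in WT and 14.9, 16.8 and 22.4 in FORKO ovaries, so that its groups did not overlap. Dmrt1 read 5.55 to 15.3 on all arrays, and its groups overlapped. For 9 oocyte markers the sum was 1013 to 1192 in WT and 374 to 595 in FORKO ovaries. Of the 6 tested, the oocyte-secreted Oosp1, the zona gene Zp2 and the maternal-effect gene Zar1 fell by 1.52, 1.29 and 1.05 (log2; limma adjusted p = 0.00799, 0.0112 and 0.0368). For 6 markers of theca and steroidogenic interstitium the sum was 18236 to 18792 in WT and 13611 to 14838 in FORKO ovaries. Of the 6 tested, Fdx1, which passes electrons to steroidogenic enzymes, fell by 0.63 (log2, limma adjusted p = 0.0299). These members did not run together, as 4 had a negative and 2 a positive change. Cyp17a1 did not pass and read 1187, 173 and 604 in WT and 2477, 307 and 556 in FORKO ovaries. Of the genes called in these 4 lists, Oosp1 and Ptgds passed in all 6 fits with an array left out, and the other 7 did not. With the replicate block, Cldn11 and Star passed too (adjusted p = 0.0197 and 0.0418). The part of these cell types in the Aldh1a7 signal, or in those of the pathway genes below, was not tested.

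The remaining genes act on finished retinoic acid. Cyp26b1, which breaks it down, read 122, 61.1 and 62.1 in WT and 46.5, 61.4 and 55.9 in FORKO ovaries. WT replicate 1 was high and the groups overlapped (log2 change -0.47 ± 0.27, SE, n = 3; limma adjusted p = 0.469; 95% interval -1.07 to 0.13); without WT replicate 1 the change was -0.17. Crabp1, which holds retinoic acid in the cytosol, read 0.537 to 4.27 in WT and 1.16 to 4.70 in FORKO ovaries and was not tested.

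**Figure D4:**
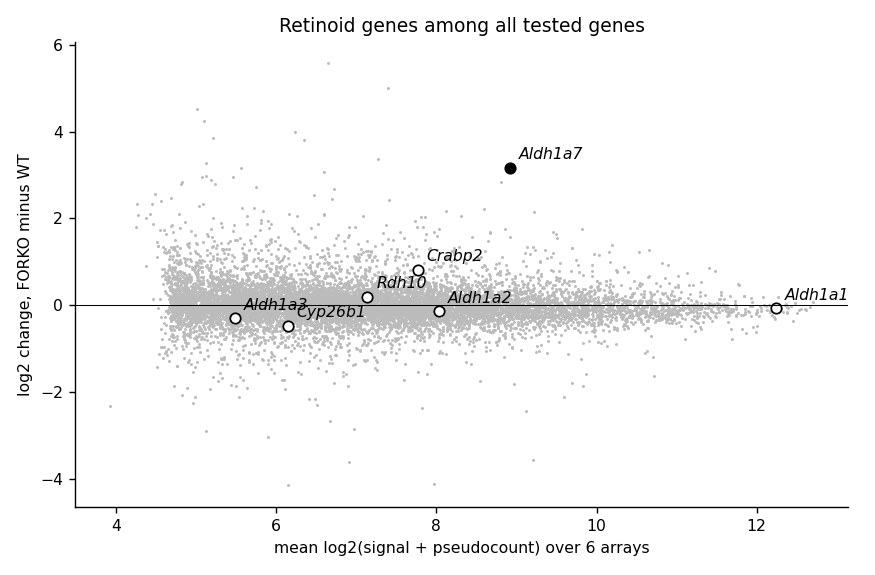
Log2 change, FORKO minus WT, against mean log2(signal + pseudocount) over 6 arrays for all 11198 genes tested (grey) and the 7 tested retinoid genes (black outline, filled where the adjusted p was under 0.05). Aldh1a7, at 3.17, lies apart from most genes of like signal, and the others lie within the cloud.

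Lists of other genes of the pathway and of the wider aldehyde dehydrogenase family together held 78 genes with a probe set, of which 54 were tested. Of these 54, 14 came from the aldehyde dehydrogenase list. None rose, 2 fell and 52 did not pass, and the median change was -0.12. The groups did not overlap for 22 of the 54, or 40.7%, against 20.4% of all tested probe sets. An unadjusted p under 0.05 was found for 37.0% of the 54, against 16.8% of all genes tested. The 40.7% counts genes by their brightest probe set, while the 20.4% counts all tested probe sets. Because the lists were chosen with earlier results of these data known, these shares are descriptions and no independent support. Rarb, Dhrs3 and Cyp26a1 stood in more than 1 list and were counted once. With the replicate number as a block 5 genes passed, in a fit where 3.07% of all probe sets did (1.92% as higher and 1.16% as lower), and without FORKO replicate 1 there were 8, namely Adh7, Aldh3a1, Cyp1b1, Dab2, Meis2, Nr2f1, Rarres2 and Tshz1.

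Both genes that fell were in the list of genes that respond to retinoic acid, of which 13 were tested (median 0.26). Nr2f1, the orphan nuclear receptor COUP-TFI, read 61.6, 69.4 and 78.6 in WT and 22.4, 22.6 and 24.9 in FORKO ovaries (log2 change -1.38 ± 0.20, SE, n = 3; limma adjusted p = 0.0129). Meis2, a homeodomain factor, read 218, 234 and 240 in WT and 71.2, 101 and 109 in FORKO ovaries (log2 change -1.27 ± 0.19, SE, n = 3; limma adjusted p = 0.0155). The FORKO arrays lay below all WT arrays for both. Nr2f1 did not pass without WT replicate 2 or 3, nor Meis2 without WT replicate 1, 2 or 3, with limma adjusted p of up to 0.0690 and 0.0828. The 2 further probe sets of Meis2 had log2 changes of -0.95 and -0.43 and did not pass (limma adjusted p = 0.106 and 0.430). In the same list Rarres2, which encodes chemerin, passed with the replicate block (adjusted p = 0.0278).

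Among retinol and retinal oxidoreductases 12 of 13 tested genes were lower in FORKO ovaries (median -0.24), against 52.6% of all genes tested. Rdh10, which was not in this list, had positive changes of 0.19 and 0.59 by its 2 probe sets. Of the 13 genes, 0 passed limma at the adjusted threshold. At an unadjusted p under 0.05, 6 of them were lower, against 16.8% of all genes tested in either direction. With the replicate block 1 of the 13 passed. That was Adh7, an alcohol dehydrogenase active on retinol, which read 42.2, 81.2 and 63.3 in WT and 0.874, 26.1 and 11.1 in FORKO ovaries. The groups did not overlap (log2 change -2.12 ± 0.50, SE, n = 3; limma adjusted p = 0.0760, and 0.0184 with the replicate block). FORKO replicates 1 and 3 were under the level of the filter on dim signals, and the FORKO mean was 12.7. Adh7 was thus tested through its WT arrays, and its size and its call with the block rest on that choice. Dhrs3, which turns retinal back into retinol, read 333, 206 and 293 in WT and 166, 165 and 166 in FORKO ovaries. Here too the groups did not overlap (log2 change -0.69 ± 0.20, SE, n = 3; limma adjusted p = 0.136).

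Of the carriers and storage genes 4 were tested and none passed (median -0.30; 1 at an unadjusted p under 0.05 in limma). Rbp4, the retinol carrier of blood, read 69.4, 58.2 and 87.4 in WT and 29.6, 38.7 and 47.7 in FORKO ovaries (limma adjusted p = 0.136). Lrat, which esterifies retinol for storage, read 706 ± 368 and 431 ± 176 (SD, n = 3; limma adjusted p = 0.473). In the list drawn up for the breakdown of retinoic acid 2 genes were tested and none passed, 1 with an unadjusted p under 0.05. Cyp1b1, a cytochrome P450 that acts on oestrogens, was that gene. Its place in this list does not show that it breaks down, rather than makes, retinoic acid. Cyp1b1 read 1383, 2023 and 1816 in WT and 2389, 2989 and 3403 in FORKO ovaries. Its groups did not overlap (log2 change 0.75 ± 0.18, SE, n = 3; limma adjusted p = 0.0831, and 0.0240 with the replicate block). Cyp2s1 read 107 ± 18.7 and 133 ± 16.0 (SD, n = 3; limma adjusted p = 0.533).

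Of 10 tested retinoic acid receptors and partners none passed (median -0.14; 3 at an unadjusted p under 0.05 in limma). Rarb, a receptor that retinoic acid itself induces, read 41.5, 39.1 and 53.9 in WT and 12.4, 27.7 and 18.8 in FORKO ovaries, with no overlap (log2 change -1.03 ± 0.28, SE, n = 3; limma adjusted p = 0.109). Rarg, another of the receptors, read 50.7 ± 18.5 and 77.6 ± 12.9 (SD, n = 3; limma adjusted p = 0.318). The median of the list was near 0 on each FORKO array, at 0.01, -0.11 and -0.13 for replicates 1, 2 and 3.

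In the wider aldehyde dehydrogenase family, 14 further members were tested and none passed limma's test, 4 of them with an unadjusted p under 0.05. Of these 14, 7 had a positive and 7 a negative change, and the median was 0.01. Aldh3a1, which detoxifies aldehydes in the cornea and stomach, had the largest fitted change. It read 3.94, 4.58 and 7.25 in WT and 8.53, 143 and 98.1 in FORKO ovaries (log2 change 2.47 ± 0.72, SE, n = 3; limma adjusted p = 0.140). It passed the filter through FORKO replicates 2 and 3 alone, since its WT arrays and FORKO replicate 1 were under 20.4, so its size and its call without FORKO replicate 1 rest on that choice. Aldh1l2, a mitochondrial folate enzyme, read 13.7 ± 5.52 and 29.1 ± 17.8 (SD, n = 3; limma adjusted p = 0.423).

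**Figure D5:**
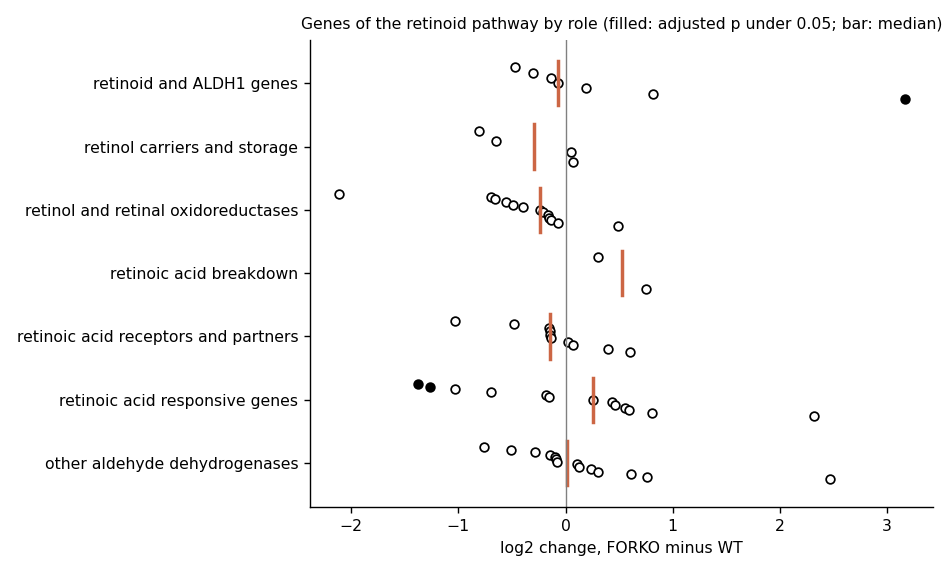
Log2 change, FORKO minus WT, of every tested gene by role, as circles filled where limma's adjusted p was under 0.05, with the median of each list as a bar. Filled circles are Aldh1a7 at 3.17, Nr2f1 at -1.38 and Meis2 at -1.27.

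The genes whose log2 signals ran most like those of Aldh1a7 over the 6 arrays were Pla2r1, a phospholipase receptor (Pearson r = 0.997), Sphkap, an anchor of protein kinase A (0.995), the chemokine gene Ccl27a (0.993), the enkephalin precursor Penk (0.992) and the kallikrein Klk1b27 (0.992). In all of them FORKO replicate 1 was highest: Penk, for example, read 153, 170 and 164 in WT and 2216, 850.1 and 906 in FORKO ovaries. Sphkap and Klk1b27 were under the filter level of 20.4 on all WT arrays, at 4.69 to 9.03 and 0.416 to 1.97. Both passed the filter through their FORKO arrays alone, so their likeness to Aldh1a7 rests on that choice. The genes most like Aldh1a1, Atp6ap2, Trip11, Fam181b, Armc5 and Rpl13a, had r from 0.959 to 0.982. With 6 points that share arrays and scaling these correlations are descriptions.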

How the data were processed

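The authors deposited 1 intensity per probe set and array, as MAS5 signals per the submitters' processing notes. Their scaling target is not given in the sources used here. Values ran from 0 to 9781, with a trimmed mean of 80.6 to 98.4 per array, and 0 pairs of arrays were identical. Groups came from the sample titles. Arrays were brought to a common mean, trimmed by 2% at both ends, with factors of 0.895 to 1.09, before log2(signal + 5.73) was taken. Control probe sets (64) were left out, and the 22506 probe sets with a mean scaled signal of at least 20.4 were kept. The test was limma's (version 3.58.1, R 4.3.3), two-sided, by lmFit and eBayes with an intensity trend, with Benjamini-Hochberg adjustment over all of them at 0.05. Exact permutation tests over the 6 arrays used scipy 1.17.1 in Python 3.11.15, and figures matplotlib 3.10.9. On simulated data for this comparison, with 200 of 22506 probe sets changed in each of 10 runs, 54.5% of log2 changes of 1 and 99.0% of changes of 2 were recovered, and 6.69% of calls were false.

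The platform annotation gave 1 symbol for 34958 probe sets, several for 932 and none for 9211. The 9 genes and all gene and marker lists were chosen with earlier results of these data known. Named in the text are the 9 genes, Fshr, in each list up to 4 genes that passed with the largest change (otherwise the 2 largest changes), and the 5 genes most correlated with Aldh1a7 and with Aldh1a1. Other genes named were chosen after their values were seen, Sox9, Dmrt1, Foxj1, Dynlrb2, Foxl2 and Amhr2 among them. In the other marker lists Actg2 of smooth muscle fell (log2 change -1.03; limma adjusted p = 0.0438; it passed in 1 of 6 fits with an array left out). Those named by the rule that did not pass were Akr1c18, Ptgfr, Fabp4, Lpl, C1qa, Adgre1, Kdr, Emcn, Gdf9 and Zp3. The summed signals in WT and FORKO ovaries were 1924 to 2433 and 1711 to 2585 for luteal cells, 1463 to 1574 and 1266 to 1999 for adipocytes, 2176 to 2482 and 2062 to 4649 for macrophages, 2295 to 2705 and 1197 to 2732 for smooth muscle, and 348 to 435 and 381 to 514 for endothelium. Both groups carry replicate numbers 1 to 3; arrays with the same number deviated from their groups together (r = 0.195, 0.134 and 0.358, all above 0.1). A pairing of the samples by these numbers rests on the data alone, since the labels give none. The main fit treated the samples as unpaired, and a fit with the number as a block was run as an alternative. Which of these fits suits the samples was not tested. Other alternatives covered the scaling, the pseudocount, the filter on dim signals, the variance model, array weights, each array left out and which probe set stands for a gene.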

Additional observations from a re-analysis of the deposited data

How the results depend on the processing

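Aldh1a7 passed under all 18 alternatives, with log2 changes from 2.86 to 3.36 and adjusted p from 1.34e-06 to 0.0130 when each array was left out. Crabp2 passed under 1 of 18, without FORKO replicate 1. Both genes have 1 probe set, so for them the alternative that takes the probe set with the largest change repeats the main fit. The count of the 9 genes that passed was 1 to 2 with each array left out. The count of probe sets that passed, 372, became 594 with spike scaling, 221 without a filter on dim signals, 181 with a mean signal of at least 100, 712 with array weights, 691 with the replicate block, and 62 to 864 with each array left out, lowest without WT replicate 2 and highest without FORKO replicate 1. The count in the pathway and aldehyde dehydrogenase lists, 2, became 4 with spike scaling, 1 with a mean signal of at least 100 and 4 with array weights. It was 5 with the replicate block (Adh7, Cyp1b1 and Rarres2 added) and 0 to 8 with each array left out. The block changed no call of the 9 genes. Genes that did not pass changed sign: with spike scaling Aldh1a1 was 0.10, Aldh1a2 0.031, Trip11 0.042, Armc5 0.014 and Rpl13a 0.057; with the same median Lpl was -0.0018; with array weights Emcn was 0.11. With arrays left out, Armc5 ranged from -0.32 to 0.031, Emcn from -0.62 to 0.34, Rdh10 from -0.036 to 0.33, Inhba from -2.64 to 0.36, Crabp2 from -0.34 to 2.96 and Lpl from -0.093 to 0.25. The causes were not tested. Signal over background limits Crabp1 and Stra6, which could be tested only without the filter, and 3 arrays a group limit the precision of all others.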

Other observations

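The chromosome 19 neighbours of Aldh1a7 and Aldh1a1, taken from the gene order and chosen after their values were seen, differed in direction. Anxa1, which encodes annexin A1, lies next to Aldh1a1 on the far side from Aldh1a7. It read 615, 853 and 785 in WT and 1383, 1229 and 1270 in FORKO ovaries (log2 change 0.79; limma adjusted p = 0.0432), and it passed in 1 of the 6 fits with an array left out. Gda, a guanine deaminase, lies 3 genes from Aldh1a7 on its other side. It read 255, 196 and 256 in WT and 109, 105 and 97.6 in FORKO ovaries (log2 change -1.13; limma adjusted p = 0.0162), and it passed in 3 of those 6 fits. Zfand5, between Gda and Aldh1a7, had a log2 change of 0.04 (limma adjusted p = 0.929), and Tmc1, Rorb and Trpm6 were below the filter on dim signals.

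Among genes that respond to retinoic acid, Rarres1 and Rarres2, also chosen after their values were seen, were higher on every FORKO array than on any WT array. The groups did not overlap, in either direction, for 20.4% of all tested probe sets. Rarres1, named as a retinoic acid receptor responder, read 0.934, 6.45 and 5.64 in WT and 168, 9.39 and 38.2 in FORKO ovaries (log2 change 2.32; limma adjusted p = 0.168). All WT arrays and FORKO replicate 2 were under the filter on dim signals. Rarres1 passed it through FORKO replicates 1 and 3 alone, so its size rests on that choice. FORKO replicate 1 was highest here, where Crabp2 was lowest. Rarres2 read 379, 396 and 648 in WT and 708, 782 and 957 in FORKO ovaries (log2 change 0.81; limma adjusted p = 0.121).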
